A study of Schizosaccharomyces pombe with 21 samples.

Results

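The 7 genes described here serve the uptake and release of nitrogen in the fission yeast Schizosaccharomyces pombe. They are isp4 (SPBC29B5.02c), ptr2 (SPBC13A2.04c), isp5 (SPAC1039.09), amt1 (SPCPB1C11.01), alr2 (SPBC359.02), gdh2 (SPCC132.04c) and isp6 (SPAC4A8.04). They were taken by locus identifier from the 6988 loci counted in the study. The choice was made with earlier results of these data known. All 7 passed the filter on low counts in both experiments.

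RNA-seq of poly(A)+ RNA was performed on 21 libraries from 7 groups, with 3 cultures per group labelled as biological replicates. All strains were of mating type h+, were in log phase at 30 °C, and carried leu1, ura4, his3 and ade6 markers. In the STF experiment, cells grew in ePMGT, a synthetic minimal glutamate medium with thiamine. Its groups were STF6, with a nonsense allele that truncates the pyrophosphatase domain of the bifunctional inositol pyrophosphate kinase and pyrophosphatase Asp1, STF9, with a nonsense allele farther along the gene, and asp1-WT, each marked with hygMX. In the kcs1 experiment, cells grew in YES, a rich yeast extract medium. Its groups were the missense alleles kcs1-R332T, kcs1-L338R and kcs1-E834K of an inositol hexakisphosphate kinase, and kcs1-WT. In all 4 of these strains kcs1 kept its own promoter, ended in the terminator of ADH1 and was linked to kanMX. Each mutant is a single strain, and each was set against the wild type of its own experiment. The comparisons ask how the transcriptome changes when the pyrophosphatase domain of Asp1 is lost or when Kcs1 is mutated.

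Fission yeast uses ammonium and glutamate by preference and turns to peptides, amino acids and other compounds when these are short. Transporters in the plasma membrane bring such compounds in, enzymes such as dehydrogenases and racemases pass their nitrogen on, and proteases of the vacuole release amino acids from the cell's own proteins. The isp genes were first found by their rise in cells that enter the sexual pathway on nitrogen starvation, and the TORC1 kinase complex holds many nitrogen starvation genes low while nitrogen is plentiful.

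Total counts were between 20547260 and 35919903 per library in the STF experiment and between 19515604 and 27776638 in the kcs1 experiment. By its label, asp1-WT replicate 1 was grown from strain BS216 and the other asp1-WT replicates from AS478, and replicate 1 stood apart from the other asp1-WT libraries for isp4 and isp5. Of the mating genes, map2 and map3, which mark the P cells of an h+ strain, summed to 3471 to 3900 counts in STF6 libraries and 2951 to 4730 in those of STF9, against 1400 to 1658 in asp1-WT. The M cell pheromone genes mfm1, mfm2 and mfm3 summed to 256 to 294, 170 to 260 and 156 to 219 counts in the same groups. In the kcs1 libraries the sums were 437 to 692 for the P cell genes and 69 to 114 for the mfm genes. Both P cell genes rose in STF6 and STF9 and passed in no kcs1 mutant. Of 5 M cell genes, which also include mam1 and mam2, 2 rose and 1 fell in STF6 and in STF9, 0 passed in R332T, and mfm1 alone rose in L338R and E834K, with means of 10.1 and 11.3 normalized counts against 2.3 in kcs1-WT. None of these 7 genes was at 0 in any library. The part of these shifts in the results below was not tested. In such bulk samples, fewer cells that express a gene and less RNA per cell cannot be told apart.

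A normalized count is a count scaled to the effective size of its library, so that libraries of one experiment can be compared. Genes were tested with the edgeR quasi-likelihood test, and a gene passed at a Benjamini-Hochberg adjusted p of 0.05 or less over all loci tested. To be called, a gene also had to change 2-fold or more and to average 100 or more normalized counts, in the mutant for a rise and in the wild type for a fall. SE is the standard error of a log2 fold change.

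In the asp1 mutants, alr2 fell steeply and isp6 rose. In the kcs1 mutants, isp4 fell in all 3 alleles, whereas isp5, gdh2 and isp6 rose in L338R and E834K. In R332T, gdh2 fell. ptr2 and amt1 did not pass in any comparison. Counted by comparison, 3 of the 7 genes passed in STF6, against 25.9% of the coding genes tested, and 3 passed in STF9, against 33.3%. In R332T 3 passed, against 36.7% of coding genes, in L338R 4 passed, against 24.1%, and in E834K 5 passed, against 28.8%. These counts come from a fit that did not use the replicate numbers. With the replicate number added to the fit as a block, 4 of the 7 genes passed in STF6 and 4 in STF9. Over all loci, 2320 and 2782 then passed in these mutants, against 1731 and 2046 without the block. The stricter rule called 1 gene each in STF6, STF9, R332T and L338R, and 2 genes in E834K. The background of calls was 2.97% of coding genes in STF6, 3.09% in STF9, 0.747% in R332T, 0.747% in L338R and 0.848% in E834K. The genes called, alr2, isp4 and isp5, were already in the study's own lists of changed genes from these libraries. The 7 genes were chosen with earlier results known, so these counts describe them and do not test for an excess. The median log2 fold change of the 7 genes was 0.15 in STF6, 0.17 in STF9, -0.00 in R332T, 0.37 in L338R and 0.35 in E834K. Over all coding genes tested, the medians were 0.03, -0.04, -0.01, -0.05 and -0.01 for the same comparisons.

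**Figure D1:**
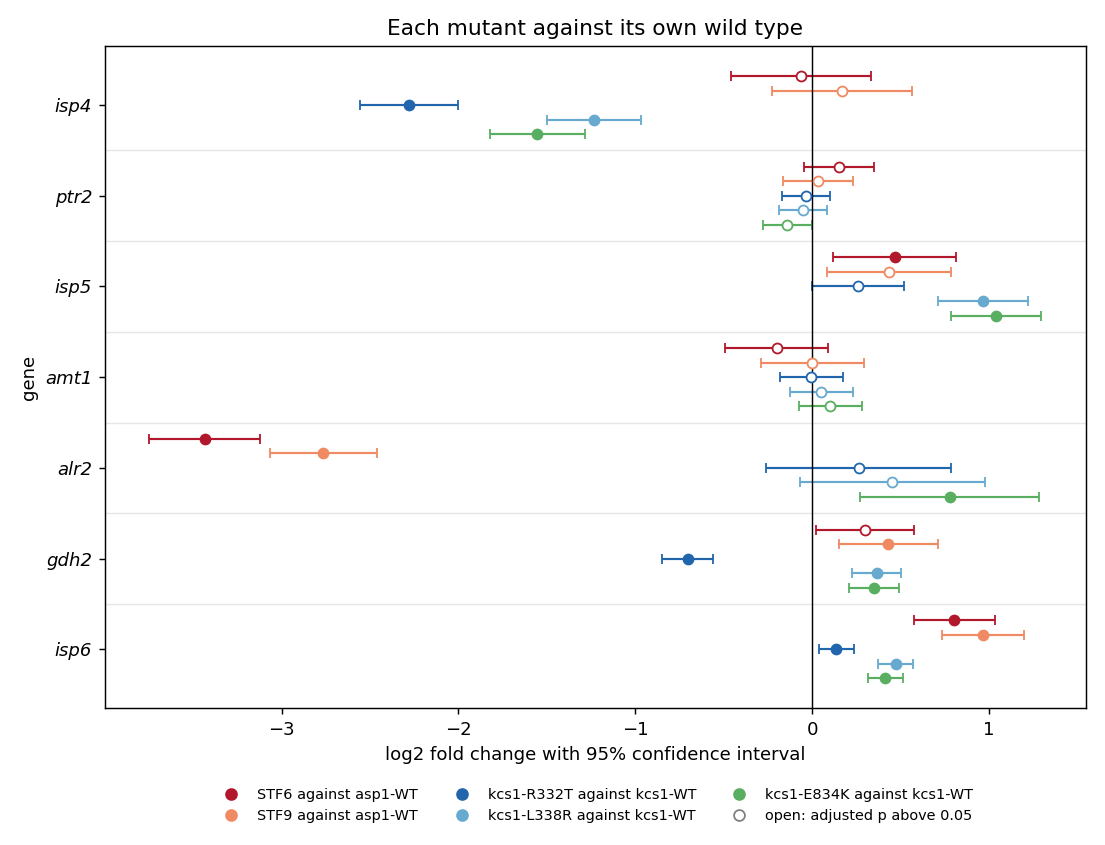
Log2 fold change (x axis) of each gene (y axis) in each mutant against its own wild type, from the edgeR fit, with the 95% confidence interval as a bar and open circles where the adjusted p is above 0.05. alr2 sits at -3.43 in STF6 and -2.76 in STF9, isp4 at -2.28, -1.23 and -1.55 in R332T, L338R and E834K, and ptr2 and amt1 have only open circles.

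The peptide transporter gene isp4 encodes a plasma membrane carrier of the oligopeptide (OPT) family. Its normalized counts were 707, 727 and 831 in kcs1-R332T, 1589, 1475 and 1615 in kcs1-L338R, 1254, 1265 and 1229 in kcs1-E834K, against 3333, 4683 and 2994 in kcs1-WT. All 9 mutant libraries lay below the lowest kcs1-WT library, and the 3 mutants did not overlap each other. The fall was 4.86-fold in R332T (log2 fold change -2.28, SE 0.13, edgeR adjusted p = 2.87e-08), 2.35-fold in L338R (-1.23, SE 0.12, adjusted p = 8.81e-06) and 2.94-fold in E834K (-1.55, SE 0.12, adjusted p = 1.07e-06). By the size of its change, isp4 took place 11 among the 4954 coding genes tested in R332T, place 46 in L338R and place 27 in E834K. The wild type spread was wide, with a coefficient of variation of 24.3% in kcs1-WT against 1.46% to 8.78% in the mutants.

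In ePMGT medium, isp4 had 9625, 9884 and 8321 normalized counts in STF6, 10721, 12523 and 9420 in STF9, against 13468, 7948 and 7658 in asp1-WT. Replicate 1 of asp1-WT was above every mutant library and the other asp1-WT libraries were below every one. The log2 fold change was -0.06 in STF6 (95% confidence interval -0.46 to 0.33, edgeR adjusted p = 0.831) and 0.17 in STF9 (-0.23 to 0.56, adjusted p = 0.500). Without asp1-WT replicate 1 it was 0.25 in STF6 (edgeR adjusted p = 0.177) and 0.48 in STF9 (adjusted p = 0.0127). Against that replicate alone, which carries the strain label BS216, it was -0.59 in STF6 and -0.35 in STF9. With a single wild type library such a fit takes its spread from the mutant groups and assumes that the lone library varies like them, so these values are given without a test. The sign of isp4 in the asp1 mutants was not the same with and without that library.

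ptr2 encodes the other peptide transporter, of the PTR family that carries di- and tripeptides. It had 2575, 2544 and 2898 normalized counts in R332T, 2627, 2434 and 2858 in L338R, 2397, 2408 and 2639 in E834K, against 2774, 2729 and 2708 in kcs1-WT. In the STF experiment it had 1970, 1938 and 1829 in STF6, 1772, 1869 and 1637 in STF9, against 1892, 1680 and 1590 in asp1-WT. Groups overlapped except in E834K, where all 3 libraries were below kcs1-WT by a log2 fold change of -0.14 (95% confidence interval -0.28 to -0.00, edgeR adjusted p = 0.118). The 5 log2 fold changes ran from -0.14 to 0.15, with intervals that reached -0.28 and 0.35 at their ends. The fall of isp4 in the kcs1 mutants therefore had no counterpart of its size in ptr2.

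isp5 encodes an amino acid transporter of the plasma membrane. Its normalized counts were 447.7, 355.5 and 385.8 in L338R, 412, 422 and 417 in E834K, 222, 259 and 247 in R332T, against 212, 213 and 184 in kcs1-WT. Every library of the 3 mutants was above all kcs1-WT libraries, as was so for 64.1% of coding genes in R332T, 34.7% in L338R and 52% in E834K in one direction or the other. isp5 rose 1.95-fold in L338R (log2 fold change 0.97, SE 0.12, edgeR adjusted p = 6.25e-05) and 2.05-fold in E834K (1.04, SE 0.12, adjusted p = 3.32e-05). The E834K value was just past the fold of 2, and alternative settings moved it between 0.97 and 1.07 on the log2 scale. In R332T the log2 fold change was 0.26 (95% confidence interval 0.00 to 0.52, edgeR adjusted p = 0.106).

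In the STF experiment isp5 had 4786, 4561 and 3471 normalized counts in STF6, 4283, 4282 and 3964 in STF9, against 4094, 2604 and 2571 in asp1-WT. Again asp1-WT replicate 1 overlapped the mutants and the other asp1-WT libraries did not. The log2 fold change was 0.47 in STF6 (SE 0.16, edgeR adjusted p = 0.0469) and 0.43 in STF9 (SE 0.16, adjusted p = 0.0548), and their difference was 0.03 (95% confidence interval -0.32 to 0.38). The STF6 result was lost with DESeq2 size factors, over coding loci only and with only the 2 groups compared. It was also lost without asp1-WT replicate 2 (0.36) or 3 (0.30) and without STF6 replicate 1 (0.34) or 2 (0.42). Against asp1-WT replicate 1 alone the value was 0.01. That fit assumes that this library varies like the mutant libraries, so the value is given without a test. The STF9 value passed with the replicate number as a block (0.46, edgeR adjusted p = 0.00305), and without asp1-WT replicate 1 (0.69, edgeR adjusted p = 0.00160). It also passed with only the 2 groups compared (0.42, edgeR adjusted p = 0.0203) and by the DESeq2 Wald test (0.45, adjusted p = 0.0297). It did not pass with DESeq2 size factors, with no filter or over coding loci only. Nor did it pass without asp1-WT replicate 2 or 3, or without any 1 of the STF9 replicates.

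amt1 encodes an ammonium transporter of the plasma membrane. It had 4867, 4298 and 3171 normalized counts in STF6, 4609, 4873 and 4709 in STF9, against 5435, 4515 and 4224 in asp1-WT. In the kcs1 experiment it had 1240, 1234 and 1157 in R332T, 1296, 1103 and 1377 in L338R, 1239, 1292 and 1379 in E834K, against 1162, 1319 and 1163 in kcs1-WT. All 5 mutants overlapped their wild type. The log2 fold changes were -0.20 in STF6 (95% confidence interval -0.49 to 0.09), 0.00 in STF9 (-0.29 to 0.29), -0.00 in R332T (-0.18 to 0.17), 0.05 in L338R (-0.13 to 0.23) and 0.10 in E834K (-0.08 to 0.28). A 2-fold change of amt1 was outside all 5 intervals. Without STF6 replicate 1 the STF6 value passed (-0.38, edgeR adjusted p = 0.0220).

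alr2 encodes alanine racemase, which interconverts the mirror forms of alanine. Its normalized counts were 783, 601 and 813 in STF6, 1243, 944 and 1324 in STF9, against 7994, 7142 and 8645 in asp1-WT. Neither mutant overlapped asp1-WT, and STF6 and STF9 did not overlap each other. alr2 fell 10.8-fold in STF6 (log2 fold change -3.43, SE 0.14, edgeR adjusted p = 4.28e-09) and 6.79-fold in STF9 (-2.76, SE 0.14, adjusted p = 2.23e-08). It took place 12 among the 4979 coding genes tested in STF6 by the size of its change, and place 22 in STF9.

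The same gene was nearly silent in YES medium. Its raw counts were 39, 57 and 28 in R332T, 40, 42 and 47 in L338R, 52, 71 and 44 in E834K, against 45, 27 and 29 in kcs1-WT. The R332T and L338R libraries overlapped kcs1-WT, and the E834K libraries did not after normalization. In E834K the log2 fold change was 0.78 (SE 0.24, edgeR adjusted p = 0.0247), with mean normalized counts of 56.0 in E834K and 32.7 in kcs1-WT, under the count minimum of a call. This result was lost in 4 of 12 alternative settings, namely the DESeq2 Wald test and without kcs1-WT replicate 2 (0.66), kcs1-WT replicate 3 (0.66) or E834K replicate 2 (0.70), with adjusted p-values up to 0.0919. In R332T and L338R the log2 fold changes were 0.26 (95% confidence interval -0.26 to 0.79) and 0.45 (-0.07 to 0.97).

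gdh2 encodes the NAD-dependent glutamate dehydrogenase, which splits glutamate into oxoglutarate and ammonium. Its normalized counts were 1152, 1156 and 1127 in R332T, 2461, 2112 and 2634 in L338R, 2403, 2406 and 2317 in E834K, against 1886, 1887 and 1824 in kcs1-WT. R332T lay below kcs1-WT and the other alleles above it, with no overlap. gdh2 fell 1.63-fold in R332T (log2 fold change -0.70, SE 0.07, edgeR adjusted p = 4.59e-06). It rose 1.29-fold in L338R (0.37, SE 0.07, adjusted p = 0.00122) and 1.27-fold in E834K (0.35, SE 0.07, adjusted p = 0.00151, edgeR for both).

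In ePMGT medium gdh2 had 1240, 1197 and 981 normalized counts in STF6, 1328, 1250 and 1164 in STF9, against 1038, 954 and 785 in asp1-WT. The STF9 libraries were above all asp1-WT libraries, and STF6 replicate 3 overlapped asp1-WT. The log2 fold change was 0.43 in STF9 (SE 0.13, edgeR adjusted p = 0.0221). This result was lost without asp1-WT replicate 2 (0.45) or 3 (0.27) and without STF9 replicate 1 (0.38) or 2 (0.42). Against asp1-WT replicate 1 alone the STF9 value was 0.22, given without a test. In STF6 the log2 fold change was 0.30 (SE 0.13, edgeR adjusted p = 0.105). With the replicate number as a block, the STF6 value passed (0.30, edgeR adjusted p = 0.0158), as it did without STF6 replicate 3 (0.34, edgeR adjusted p = 0.0304).

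isp6 encodes a serine protease of the vacuole, which takes part in the breakdown of cell proteins. It had 9809, 9202 and 7538 normalized counts in STF6, 9538, 10095 and 10090 in STF9, against 5680, 4750 and 4781 in asp1-WT. Both mutants were above asp1-WT without overlap. isp6 rose 1.74-fold in STF6 (log2 fold change 0.80, SE 0.11, edgeR adjusted p = 1.10e-04) and 1.95-fold in STF9 (0.97, SE 0.11, adjusted p = 2.49e-05). Neither rise reached the fold of 2, and both passed in every alternative setting with more than 1 asp1-WT library. Against asp1-WT replicate 1 alone the log2 fold changes were 0.59 in STF6 and 0.76 in STF9, given without a test. Groups did not overlap for 2 of the 7 genes in STF6 and 3 in STF9, against 32.8% and 60.5% of coding genes.

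In YES medium isp6 had 1934, 1889 and 2011 normalized counts in R332T, 2511, 2335 and 2511 in L338R, 2352, 2340 and 2379 in E834K, against 1759, 1742 and 1803 in kcs1-WT. All 9 mutant libraries were above kcs1-WT. isp6 rose 1.39-fold in L338R (log2 fold change 0.47, SE 0.05, edgeR adjusted p = 6.54e-06) and 1.33-fold in E834K (0.41, SE 0.05, adjusted p = 2.43e-05). In R332T the rise was 1.10-fold (0.14, SE 0.05, edgeR adjusted p = 0.0330) and was lost in 6 of 12 alternative settings, among them without kcs1-WT replicate 1 (0.13) or 2 (0.12) and without R332T replicate 1 (0.14) or 3 (0.11).

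**Figure D2:**
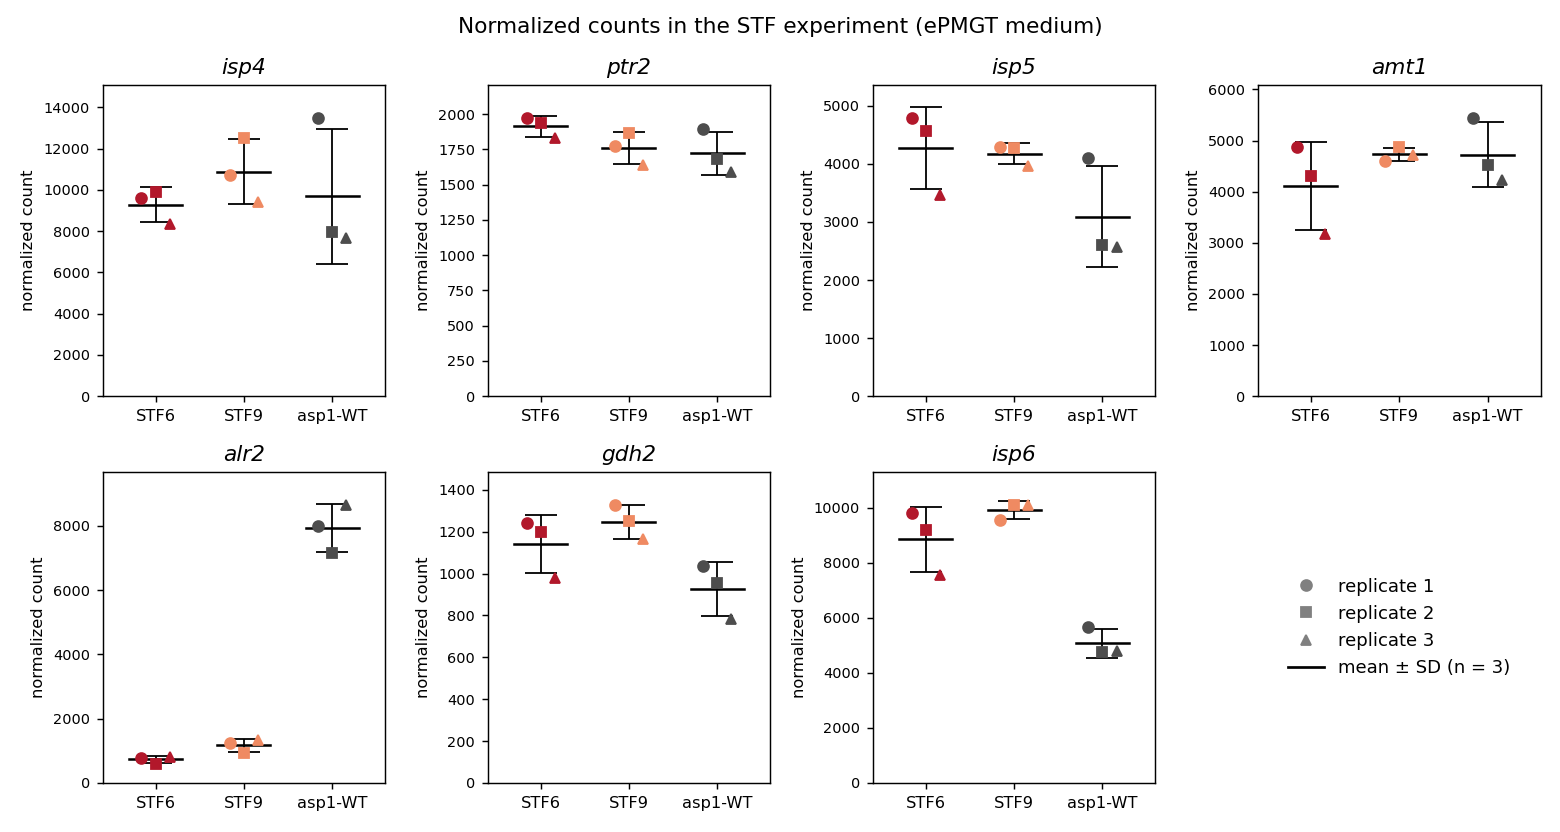
Normalized counts (y axis, from 0) of the 7 genes in each library of STF6, STF9 and asp1-WT (x axis), with replicates as symbols and the mean ± SD (n = 3) in black. alr2 is at 601 to 813 in STF6 and 944 to 1324 in STF9 against 7142 to 8645 in asp1-WT, and replicate 1 of asp1-WT stands above the others for isp4 and isp5.

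**Figure D3:**
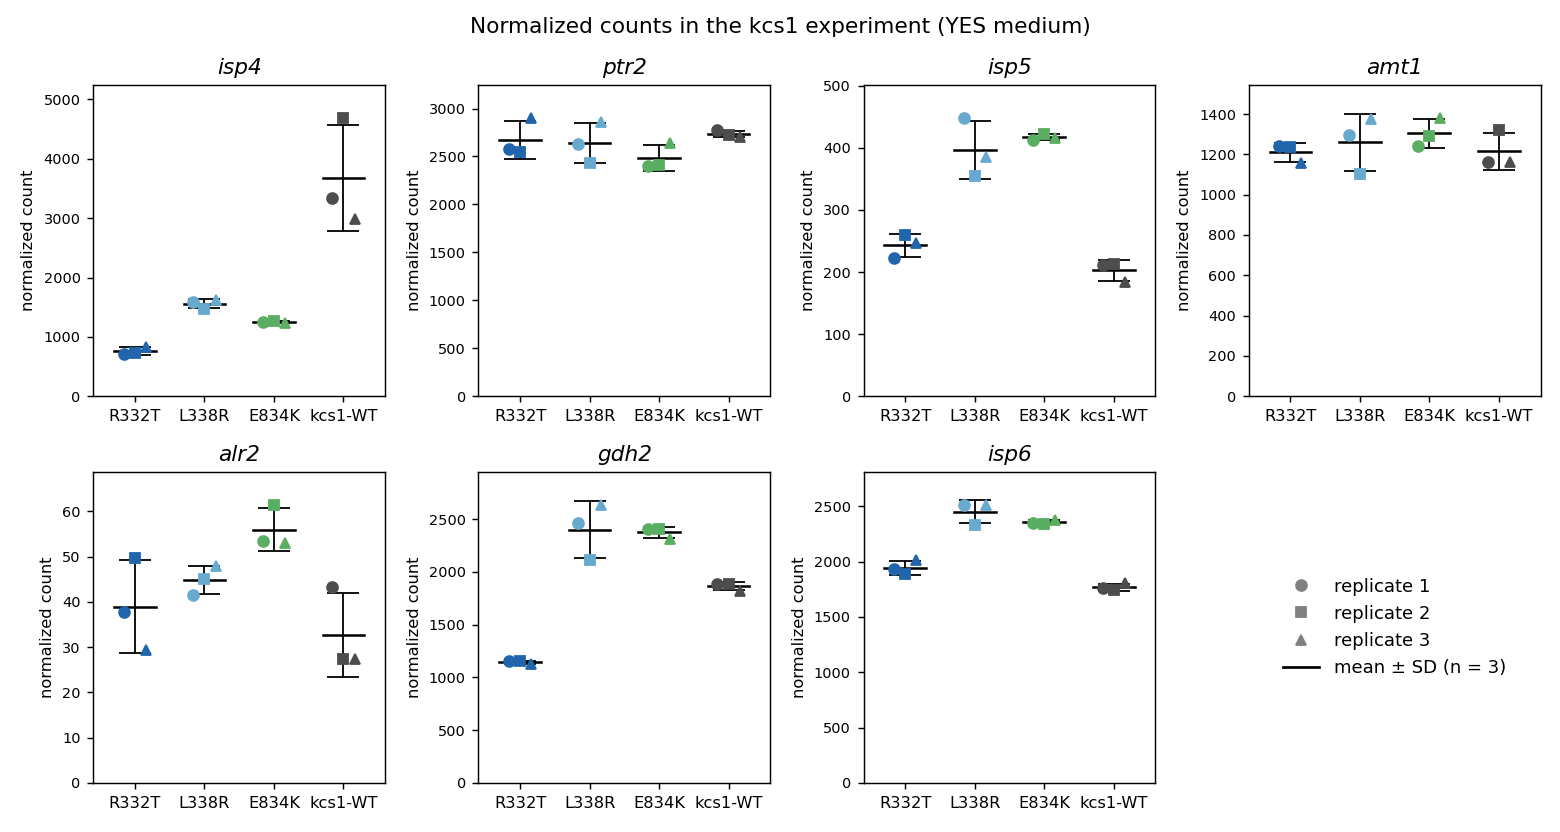
Normalized counts (y axis, from 0) of the 7 genes in each library of R332T, L338R, E834K and kcs1-WT (x axis), with replicates as symbols and the mean ± SD (n = 3) in black. isp4 is lowest in R332T, at 707 to 831, against 2994 to 4683 in kcs1-WT, and gdh2 lies at 1127 to 1156 in R332T, below kcs1-WT, and above it in L338R and E834K.

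The alleles were then compared directly. Between R332T and L338R, 4 of the 7 genes passed, all lower in R332T, against 40.5% of coding genes in either direction and 21.5% lower in R332T. Between R332T and E834K the same 4 genes passed, isp4, isp5, gdh2 and isp6, again all lower in R332T, against 14.7% of coding genes in either direction and 10.5% lower in R332T. These comparisons share the R332T libraries. Groups did not overlap for 4 of the 7 genes against L338R and 5 against E834K, beside 51.4% and 46.8% of coding genes. By the stricter rule, 2 genes were called against L338R and 1 against E834K, beside 0.686% and 0.525% of coding genes. gdh2 was lower in R332T than in L338R (log2 difference -1.07, SE 0.07, edgeR adjusted p = 9.29e-08) and than in E834K (-1.05, SE 0.07, adjusted p = 1.25e-07). isp4 was 2.07-fold lower in R332T than in L338R (-1.05, SE 0.13, edgeR adjusted p = 5.67e-05) and 1.66-fold lower than in E834K (-0.73, SE 0.13, adjusted p = 0.00175). isp5 differed by -0.71 and -0.78 on the log2 scale (SE 0.12 for both) and isp6 by -0.34 and -0.28 (SE 0.05 for both). All 8 differences held in all 12 alternative settings.

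L338R and E834K did not differ by the test in any of the 7 genes, nor in any coding gene (0% of 4954), and groups were apart for 2 of the 7 genes, isp4 and alr2, against 15.6% of coding genes. At an unadjusted p under 0.05, isp4 alone of the 7 differed, with a log2 difference of 0.32 (95% confidence interval 0.05 to 0.59, edgeR adjusted p = 0.315). For isp5 the difference was -0.07 (-0.32 to 0.17), for gdh2 0.02 (-0.12 to 0.16) and for isp6 0.06 (-0.04 to 0.15). The DESeq2 Wald test gave an adjusted p for 5 of the 7 genes, not for isp5 and alr2, and 0 of these 5 passed, while 16 of all loci did. These intervals leave room for differences of up to the values given, so the alleles were not shown to act alike.

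STF6 and STF9 likewise showed 0 of the 7 genes past the threshold, against 0.0803% of coding genes, and 0 called, against 0.0402%. alr2 was lower in all 3 STF6 libraries than in any STF9 library, as 26.5% of coding genes were apart in one direction or the other. Its log2 difference was -0.67 (95% confidence interval -0.97 to -0.37), with an unadjusted p = 0.000310 and an adjusted p = 0.211 by the edgeR test. alr2 was the 1 gene of the 7 with an unadjusted p under 0.05. With the replicate number as a block, alr2 passed (-0.67, edgeR adjusted p = 4.55e-04). The number of loci that passed was then 424, against 5 without the block. Correlations of the deviations of same-numbered STF6 and STF9 replicates were 0.13, -0.14 and -0.02 across coding genes. The numbers therefore do not themselves pair these 2 groups. The DESeq2 Wald test gave alr2 no adjusted p, since its filter on low means left only isp4 and isp6 of the 7 genes, and neither passed. Without STF6 replicate 1 or STF6 replicate 3, alr2 passed, with log2 differences of -0.71 (edgeR adjusted p = 0.0103) and -0.76 (adjusted p = 0.0409). Over all loci, 2121 passed without STF6 replicate 1 and 9 without STF6 replicate 3, so the first of these passes was not particular to alr2.

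**Figure D4:**
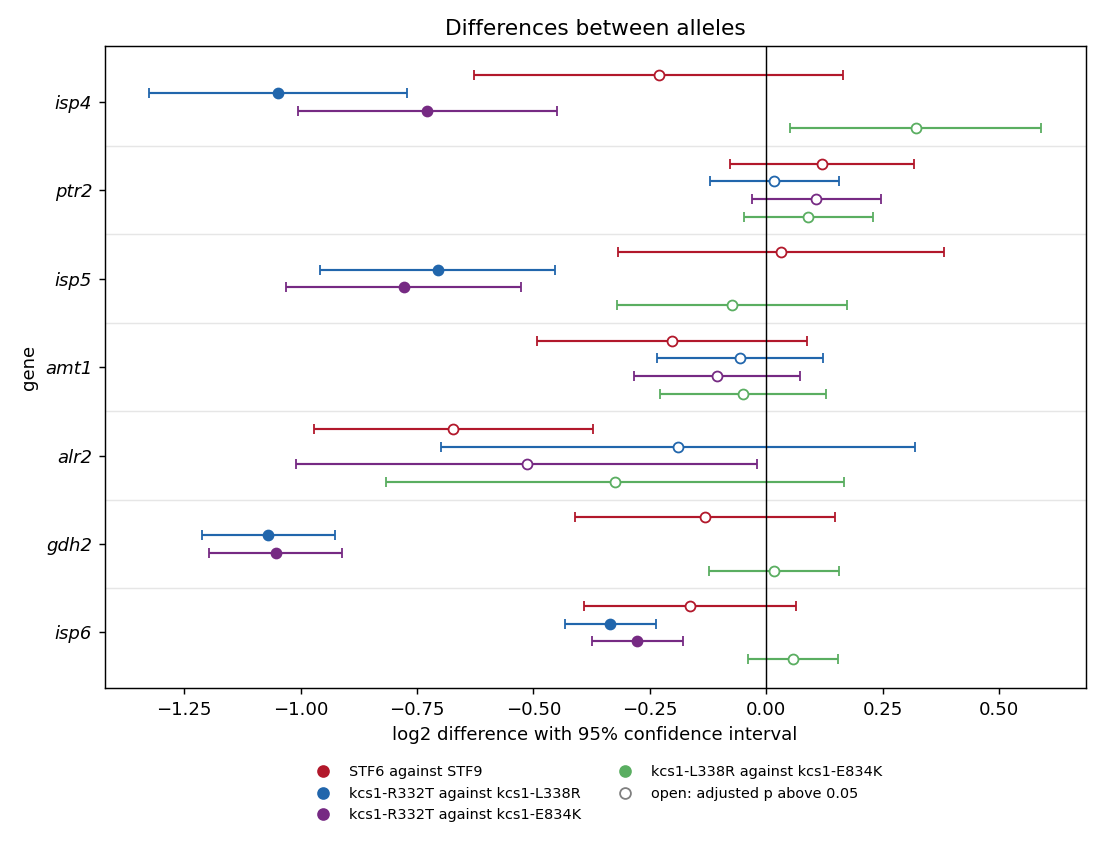
Log2 difference between 2 alleles (x axis), first-named minus second-named, for each gene (y axis), with the 95% confidence interval as a bar and open circles where the adjusted p is above 0.05. isp4, isp5, gdh2 and isp6 have filled circles below 0 for R332T against L338R and against E834K, and all circles of STF6 against STF9 and of L338R against E834K are open.

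Levels of the 7 genes in the 2 wild types were set side by side as RPKM, counts scaled to exon length and library size. These strains differ in medium, marker and experiment, which cannot be told apart, so no test was made. In asp1-WT in ePMGT the order was alr2 with 183 RPKM, isp4 with 143, isp6 with 87.3, amt1 with 63.8, isp5 with 60.1, ptr2 with 22.8 and gdh2 with 9.46. The ranges over 3 libraries overlapped between the neighbours alr2 and isp4 and between amt1 and isp5, and between no other neighbours in this order. In kcs1-WT in YES the order was isp4 with 61.3 RPKM, ptr2 with 41.0, isp6 with 34.5, gdh2 with 21.6, amt1 with 18.6, isp5 with 4.48 and alr2 with 0.856. Here no neighbours in the order overlapped in their ranges. The RPKM level in ePMGT was 214 times that in YES for alr2, 13.4 times for isp5, 3.43 times for amt1, 2.53 times for isp6 and 2.33 times for isp4. It was lower in ePMGT for ptr2 (0.555 times) and gdh2 (0.438 times). alr2 thus stood at the top of the order in ePMGT and at its end in YES.

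The fall of alr2 in the asp1 mutants was shared by the genes beside it. By the gene order of the RefSeq annotation, alr2 lies between SPBC359.01 and aat1, both genes for amino acid permeases, and aat1 is followed by pfl7. SPBC359.01 fell (log2 fold change -2.16 in STF6 and -1.71 in STF9, edgeR adjusted p = 1.24e-06 and 8.97e-06). aat1 fell (log2 fold change -1.97 in STF6 and -1.45 in STF9, adjusted p = 2.22e-07 and 2.89e-06), and pfl7 fell (log2 fold change -2.67 in STF6 and -1.83 in STF9, adjusted p = 1.14e-08 and 2.77e-07, edgeR throughout). On the far side of SPBC359.01, SPBPB10D8.07c did not pass the filter in the STF experiment. In the kcs1 mutants SPBC359.01 and aat1 did not pass, with log2 fold changes between -0.13 and 0.17, and pfl7 fell (log2 fold change -0.53 in L338R and -0.47 in E834K).

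On the strand opposite alr2, the noncoding locus SPNCRNA.1309 was counted separately. It averaged 80.9 normalized counts in the STF6 libraries and 107 in those of STF9, against 40.3 in asp1-WT, and rose by log2 fold changes of 1.02 in STF6 (edgeR adjusted p = 0.0172) and 1.43 in STF9 (adjusted p = 0.00217), opposite in direction to alr2. The strand setting of the counting is not stated, and reads of overlapping loci on opposite strands cannot be told apart without it. The mean of alr2 was 7927 normalized counts in asp1-WT. The part of SPNCRNA.1309 in the fall of alr2 was not tested.

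None of the 4 coding neighbours of isp4 was called in any mutant, and app1, the second gene on one side, fell (log2 fold change -0.46 in R332T, -0.35 in L338R and -0.49 in E834K, edgeR adjusted p = 1.97e-05, 2.56e-04 and 1.41e-05). The nearest neighbours of isp4 are atf1, for a stress transcription factor, and rpl26, for a ribosomal protein, and neither fell past the threshold in a kcs1 mutant. None of the 4 neighbours of isp5 rose past the threshold in a mutant, and SPAC1039.08 beside it fell (log2 fold change -0.53 in STF9, edgeR adjusted p = 0.0375). Beside gdh2, SPCC338.18 rose with log2 fold changes of 0.55 in STF6, 0.58 in STF9 and 0.96 in L338R. SPCC132.03, which overlaps gdh2 on the opposite strand, had 0.15 in R332T (edgeR adjusted p = 0.203), where gdh2 fell. The other overlapping loci counted were bbl1 for ptr2, which did not pass in any comparison, and SPNCRNA.834 for isp6, on the same strand. SPNCRNA.834 rose with isp6 in the kcs1 mutants, to means of 48.1 normalized counts in R332T, 49.8 in L338R and 57.6 in E834K, against 28.6 in kcs1-WT (edgeR adjusted p = 0.0377, 0.0373 and 0.00873), and its part in the isp6 counts was not tested. All 51-base windows of the 7 genes' exons occurred once in the reference genome, so their reads are not shared with a copy.

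**Figure D5:**
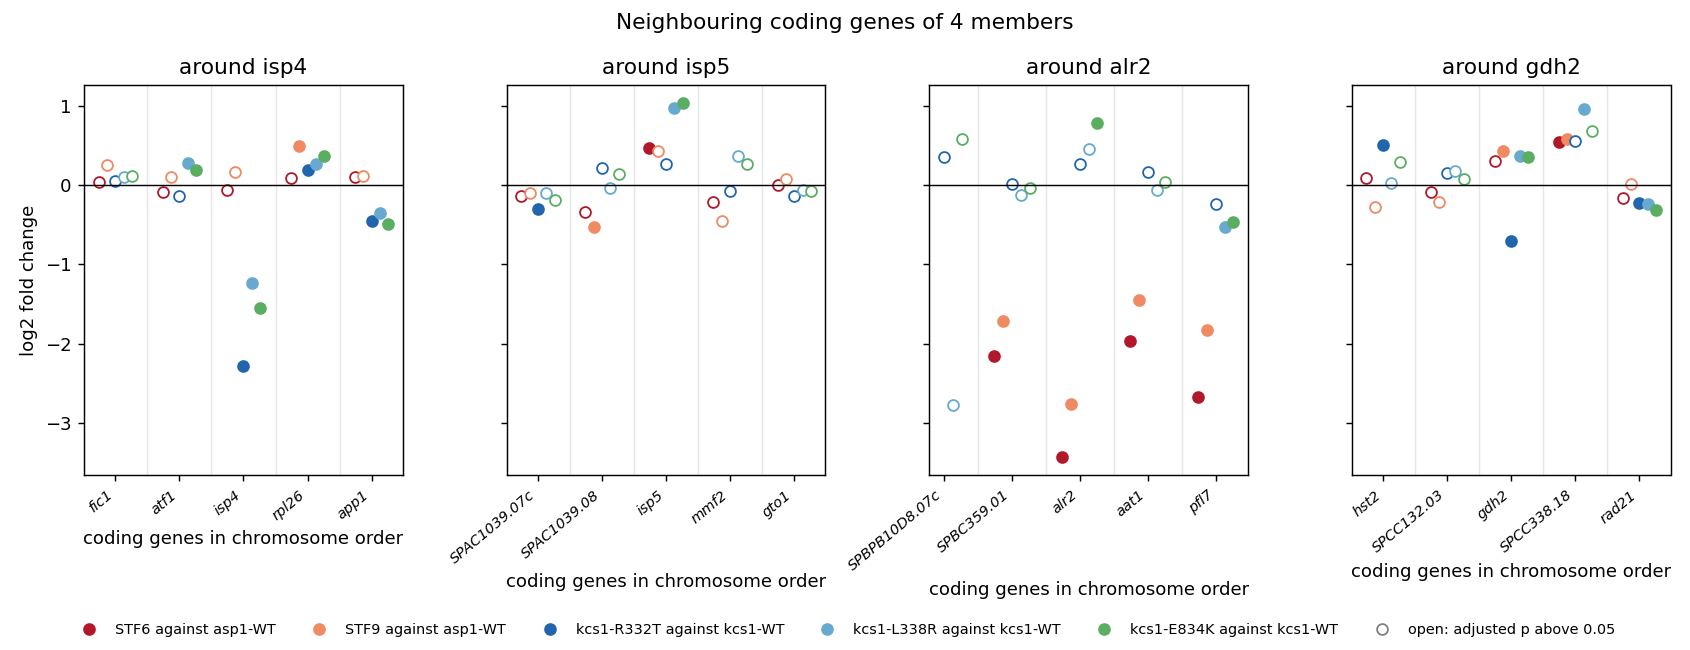
Log2 fold change (y axis) of isp4, isp5, alr2 and gdh2 and of the 2 nearest coding genes on each side (x axis, chromosome order, not to scale) in the 5 mutant comparisons, with open circles where the adjusted p is above 0.05. In STF6 and STF9 alr2 and its tested neighbours SPBC359.01, aat1 and pfl7 all lie between -3.43 and -1.45, while in the kcs1 mutants the neighbours of isp4 lie between -0.49 and 0.37 and isp4 at -2.28, -1.23 and -1.55.

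For the 4 genes called in at least 1 comparison, the coding genes with the most similar pattern were sought by the root mean square difference of the 5 log2 fold changes, among 4708 or 4709 genes with enough counts in both experiments. For alr2 they were pan5, a 2-dehydropantoate 2-reductase gene (difference 0.54), the arylsulfatase gene SPBPB10D8.02c (0.61) and SPCP20C8.02c (0.67). SPBPB10D8.02c lies 6 coding genes from alr2 on the same chromosome. pan5 had -2.52 in STF6 and -2.83 in STF9, and SPCP20C8.02c had -3.54 and -3.71. For isp4 they were the transporter gene mfs3 (0.59), the thioesterase gene the4 (0.67) and SPBC3H7.05c (0.68), all with smaller falls than isp4 in R332T, of -1.08, -0.93 and -0.81 on the log2 scale.

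The differences were smaller for isp5 and gdh2, whose largest log2 fold changes were also smaller than those of alr2 and isp4. The measure is not scaled to the size of a gene's change. The smaller differences therefore do not show a closer match. For isp5 the nearest were the metallothionein gene zym1 (difference 0.17), SPBC1105.13c (0.22) and the reductase gene SPAC19G12.09 (0.23). zym1 had log2 fold changes of 0.24 in R332T, 0.70 in L338R and 0.91 in E834K. For gdh2 they were the ATPase inhibitor gene inh1 (0.20), the carbonic anhydrase gene nce103 (0.22) and the hexitol dehydrogenase gene tms1 (0.22). In the same order they had -0.43, -0.47 and -0.56 in R332T. Their values were 0.21, 0.03 and 0.04 in L338R, where gdh2 had 0.37. In E834K they were 0.05, 0.14 and 0.10, where gdh2 had 0.35. The rise of gdh2 in these 2 alleles was thus larger than in its nearest matches. None of these measures is a test, and the 5 comparisons share 2 wild types.

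Other genes of nitrogen use were counted from lists written from their known roles, beside the share of all coding genes given above for each comparison. The lists were written with earlier results of these data known. Their counts and medians are therefore descriptions of the genes listed and do not test for a shift. Of 15 matched amino acid transporter genes, 3 rose and 9 fell in STF6, with 5 of the falls called, and 3 rose and 9 fell in STF9, with 3 falls and 1 rise called. The list's median log2 fold change was -0.54 in either mutant, against 0.03 and -0.04 for all coding genes. The 2 largest falls were those of the alr2 neighbours SPBC359.01 and aat1. nrg1, an amino acid permease gene, rose by log2 fold changes of 0.92 in STF6 and 1.37 in STF9 (edgeR adjusted p = 2.96e-04 and 1.39e-05), and dip5, another amino acid transporter gene, by 0.89 and 0.86.

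In the kcs1 mutants, 4 amino acid transporter genes rose and 3 fell in R332T, 1 rose and 2 fell in L338R, and 3 rose and 2 fell in E834K. nrg1 fell (log2 fold change -1.71 in R332T), with a mean of 289 normalized counts there against 946 in kcs1-WT (edgeR adjusted p = 1.26e-05). The largest rise in R332T was that of SPCC794.03 (1.14), which the RefSeq annotation names a thiamine transporter. dip5 rose in L338R and E834K by 0.84 and 0.81, with means of 91.5 and 88.9 normalized counts against 50.9 in kcs1-WT, while isp5 rose in both of these alleles by 0.97 and 1.04.

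Of 6 other genes of ammonium, glutamate and glutamine, 1 rose and 4 fell in STF6 and 1 rose and 2 fell in STF9. amt3, an ammonium transporter gene, rose by 0.61 and 0.70, and amt2, another, fell (log2 fold change -0.62 in STF6 and -0.42 in STF9). gdh1, for the NADP-dependent glutamate dehydrogenase that fixes ammonium, fell (log2 fold change -0.83 in STF6 and -0.47 in STF9, edgeR adjusted p = 0.00120 and 0.0278). In the kcs1 mutants 2 rose and 1 fell in R332T, 3 rose in L338R and 3 rose in E834K. gdh1 rose by log2 fold changes of 0.69 in L338R and 0.69 in E834K (edgeR adjusted p = 1.17e-07 and 1.12e-07), as gdh2 did by 0.37 and 0.35.

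Of 14 genes for enzymes that release nitrogen, 2 rose and 9 fell in STF6 and 2 rose and 6 fell in STF9. The proline dehydrogenase gene put1 fell (log2 fold change -1.25 in STF6 and -0.94 in STF9), and the arginase gene car1 fell (log2 fold change -1.25 in STF6). uga1, for the transaminase of 4-aminobutyrate, rose by 0.61 in STF6 and 0.63 in STF9. In the kcs1 mutants 5 fell in R332T, 7 fell and 1 rose in L338R and 7 fell in E834K, none of them called. Here uga1 fell (log2 fold change -0.52 in R332T and -0.42 in L338R). The 2 other OPT genes were pgt1, for a glutathione transporter, and opt3. pgt1 fell (log2 fold change -0.51 in STF6, -0.45 in STF9, -0.30 in L338R and -0.25 in E834K), each less than isp4 in the kcs1 alleles, and opt3 rose in L338R and E834K, with means of 66.8 and 70.4 normalized counts against 43.0 in kcs1-WT.

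Of 16 genes of vacuolar proteolysis and autophagy, 4 rose and 3 fell in STF6, 6 rose and 2 fell in STF9, 3 rose and 4 fell in R332T, 4 rose and 5 fell in L338R, and 3 rose and 5 fell in E834K. pbi2, whose product inhibits a vacuolar proteinase, was called higher in STF6, STF9, L338R and E834K, with log2 fold changes of 1.47, 1.56, 1.10 and 1.04 (edgeR adjusted p = 1.02e-07, 5.00e-08, 3.57e-08 and 5.12e-08). isp6 passed higher in these 4 mutants and also in R332T (0.14), and was itself not called in any mutant. In R332T pbi2 averaged 1103 normalized counts, against 990 in kcs1-WT, and was not called. psp3, another serine protease gene, rose by 0.65 in STF9, and atg8, for a protein of autophagosomes, by 0.49 in STF6. The list's medians lay between -0.06 and 0.12.

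Of 18 genes for regulators of the nitrogen response, 2 rose and 4 fell in STF6, 4 rose and 4 fell in STF9, 9 fell in R332T, 1 rose and 2 fell in L338R, and 5 fell in E834K. isp7, for an oxygenase that acts on amino acid uptake and TORC1, was called lower in STF6 (-1.13, edgeR adjusted p = 1.22e-05) and STF9 (-1.06, adjusted p = 2.22e-05). psk1, for a kinase downstream of TORC1, rose by log2 fold changes of 0.67 in STF6 and 0.76 in STF9 and fell (log2 fold change -0.57 in R332T and -0.23 in E834K). tor2, for the kinase of TORC1 itself, fell (log2 fold change -0.43 in R332T and -0.27 in E834K).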

How the data were processed

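The authors mapped paired 51-base reads to S. pombe genome ASM294v2 with HISAT2 2.1.0, processed them with SAMtools and counted reads per locus with HTSeq 0.10.0; the labels and the methods name different library kits, and the strand setting is not given in the sources used here. The deposited matrices hold whole-number counts of 6988 loci. The authors' DESeq2 tables (normalized means, log2 fold changes, Wald scores, p-values) were not used. Names, exon lengths and gene order came from RefSeq's ASM294v3 table, which matched 6836 loci; no coordinates or sequences are given, since the files' build was not at hand, and no promoter motif was searched.

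Each experiment was fitted alone on all its groups (edgeR 4.0.16, R 4.3.3): filterByExpr (6144 and 6093 loci kept, 4979 and 4954 coding), TMM factors, quasi-likelihood test, prior count 0.125, with 6 and 8 residual degrees of freedom. The code was tested on simulated counts. Alternatives were DESeq2 1.42.0 (size factors, Wald test), no filter, coding loci only, 2 groups only, a replicate block, each library left out and, chosen after seeing the data, only the BS216 asp1-WT library. The 7 genes and the lists were chosen with earlier results of these data known; 78 of 83 list names matched. Named were all 7 genes; up to 2 genes per list, comparison and direction, the largest changes; the 2 coding neighbours on each side, and overlapping loci; and the 3 most similar genes.

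Same-numbered replicates deviated together (correlation across coding genes over 0.1 in every pair) in STF6 (0.65, 0.18, 0.70), STF9 (0.125, 0.105, 0.112) and L338R (0.56, 0.25, 0.28) with their wild types, so the numbers were taken to pair these samples. The STF9 values were only just over 0.1, and L338R replicate 2 correlated more with kcs1-WT replicate 3 (0.32) than with kcs1-WT replicate 2 (0.25). The pairing of L338R is therefore uncertain. The main fit did not use this pairing, and the replicate block was run as an alternative. No replicates were duplicates (chi-square per degree of freedom at least 3.24). P-values measure the spread between cultures of 1 strain per group, except in asp1-WT, whose labels name 2 strains. Fits against the BS216 library alone assume that it varies like the mutant libraries.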

Additional observations from a re-analysis of the deposited data

Results flagged for a closer look

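The change of 4 genes differed between kcs1 alleles by the direct test of one allele against another. In R332T against L338R, the log2 difference was -1.07 for gdh2, -1.05 for isp4, -0.71 for isp5 and -0.34 for isp6. In R332T against E834K it was -1.05 for gdh2, -0.73 for isp4, -0.78 for isp5 and -0.28 for isp6. All 8 adjusted p-values of the edgeR test were 0.00175 or lower, and all 3 R332T libraries were lower than every library of the other allele in each case. gdh2 is the gene whose direction against kcs1-WT differed, lower in R332T and higher in L338R and E834K.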

How the results depend on the processing

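Of 763 values of the 7 genes under alternative settings, 694 kept their direction and their side of the threshold, 15 newly passed it, 23 no longer did, and 31 changed sign. The 763 values include fits against the BS216 library alone, which are not valid tests, so their side of the threshold carries no weight. In STF6 and STF9, the fall of alr2 and the rise of isp6 passed under every alternative with more than a single asp1-WT library. The fall of isp4 passed under every alternative run in the 3 kcs1 mutants. So did the rises of isp5, gdh2 and isp6 in L338R and E834K.

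With the replicate block, the number of genes that passed was 4 in STF6, 4 in STF9, 3 in R332T, 4 in L338R and 6 in E834K. It was 1 in STF6 against STF9 (alr2, -0.67, edgeR adjusted p = 4.55e-04), 4 in R332T against L338R, 4 in R332T against E834K and 0 in L338R against E834K. Where the numbers pair the samples, the block changed no call beyond gdh2 in STF6 and isp5 in STF9. In STF6 against STF9 and in E834K the numbers do not themselves pair the samples compared. In E834K ptr2 passed with the block (-0.14, edgeR adjusted p = 0.0442).

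Leaving out 1 replicate at a time, 2 to 5 genes passed in STF9 (5 without asp1-WT replicate 1) and 0 to 2 in STF6 against STF9 (2, alr2 and amt1, without STF6 replicate 1). Over all loci, 1950 passed in STF9 without asp1-WT replicate 1, against 2046 in the main fit. In STF6 against STF9, 2121 passed without STF6 replicate 1, against 5 in the main fit. Changes of sign were all in values near 0 or resting on asp1-WT replicate 1. Leave-one-out ranges were -0.26 to 0.25 for isp4 in STF6, -0.0261 to 0.48 for isp4 in STF9, -0.0723 to 0.11 for ptr2 in STF9, -0.12 to 0.11 for amt1 in STF9, -0.0547 to 0.15 for isp5 in STF6 against STF9, -0.0355 to 0.0576 for amt1 in R332T, -0.11 to 0.00069 for ptr2 in L338R and -0.0173 to 0.14 for amt1 in L338R. Between alleles they were -0.0424 to 0.0782 for ptr2 and -0.14 to 0.0133 for amt1 in R332T against L338R, and -0.12 to 0.0380 for amt1 and -0.0554 to 0.10 for gdh2 in L338R against E834K. Against the BS216 library alone, the values were -0.0329 for ptr2 in STF6, and -0.35 for isp4, -0.15 for ptr2, -0.0185 for isp5 and -0.25 for amt1 in STF9. amt1 in STF9 was -0.00020 with no filter, -0.0296 over coding loci only and -0.0107 with only the 2 groups, amt1 in R332T was 0.0142 over coding loci only, and isp5 in STF6 against STF9 was -0.0167 with DESeq2 size factors. The cause was not tested. Counts of 27 to 71 limit alr2 in YES medium.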
